A study of Homo sapiens with 4 samples.

Results

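PC9-BrM4 is a brain-metastatic derivative of PC9, a human lung adenocarcinoma line driven by an EGFR exon 19 deletion, and its 2 large sub-populations in culture, numbered 6 and 7, were compared with sub-populations 2 and 3 of parental PC9. Single-cell RNA sequencing had been performed on PC9-BrM4 (labelled BM4), PC9, C2 and R2, with 1 library per line. The libraries were made from combined passages of cells grown for 3 days, by the paper's account without the EGFR inhibitor osimertinib. The cells of the 4 libraries were clustered together into 19 sub-populations. PC9-BrM4 had been recovered from brain metastases after repeated intracardiac injection of PC9 cells carrying a lentiviral thymidine kinase, GFP and luciferase reporter, and it is a selected population and not a clone. C2 and R2 came from brain metastases that PC9-BrM4 cells formed in animals given vehicle or the EGFR inhibitor osimertinib. Sub-populations 6 and 7 are placed in PC9-BrM4, and 2 and 3 in PC9, by the published plot of sub-populations. They held 3121 and 5350 cells, together 8471 of the 24441 cells of the series (34.7%), and smaller sub-populations that also contain PC9-BrM4 cells were not part of the comparison.

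Cells that colonise an organ must attach to its matrix, withstand reactive metabolites and respond to growth factors, and fibronectin and its integrin receptors belong to the first of these tasks. The transcription factor NRF2 governs the second: when its repressor KEAP1 is modified by electrophiles, NRF2 accumulates and binds antioxidant response elements in genes for aldo-keto reductases, glutathione synthesis and NADPH supply. Lung adenocarcinoma cells also retain programmes of airway epithelium, such as secreted protease inhibitors, mucosal defence proteins and calcium-binding S100 proteins. In brain metastasis, background work has named protocadherin 7, lipocalin 2 and other adhesion or secreted molecules.

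The values are the authors' means over all cells of a sub-population, from any of the 4 libraries. A column may therefore mix cells of several lines. Values given for a line are those of the 2 sub-populations placed in it, and the share of other lines in them was not known. Each line had 1 library and no replicate, and no statistical test could be made. Sub-population 6 held 1844 cells, 7 held 1277, 2 held 2686 and 3 held 2664. Corrected UMIs (unique molecular identifiers, each marking 1 captured transcript, adjusted by the authors to a common depth) summed to 15006 and 14306 per cell in 6 and 7, against 14769 and 15409 in 2 and 3. Among called genes the 95% Poisson interval of a mean had a median half-width of 5.14% and a largest half-width of 34.2%, which cover counting error only. The G2/M list, genes of mitosis, summed to 6543 and 4219 CPM (corrected UMIs after each column was scaled to a total of 1000000) in 6 and 7, against 4813 and 8886 in 2 and 3, so that 6 and 3 are the columns with more mitotic expression and 7 and 2 those with less. Every difference was therefore also read as 6 minus 3 and 7 minus 2. Mitochondrially encoded transcripts took 17.2% and 17.7% of the corrected UMIs in 6 and 7, against 15.7% and 15.2% in 2 and 3, and the part of mitosis and of this share in the results was not tested.

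Epithelial identity was plain on both sides. The lung adenocarcinoma epithelial markers, led by the keratin gene KRT18, summed to 16980 and 19089 CPM in 6 and 7, against 19709 and 17961 in 2 and 3. Of marker lists for other cell types, those of alveolar type 2, fibroblast, endothelial and erythroid cells had no measured member, and each summed to at most 4.65 CPM in any of the 4 columns. Neural and glial markers summed to 81.9 and 74.0 CPM in 6 and 7, against 44.9 and 46.0 in 2 and 3, led by MBP, a myelin gene on chromosome 18, while the astrocyte marker GFAP was at 0 in all 4 columns.

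Of 19973 genes in the corrected table, 7568 averaged at least 10 CPM over the 4 columns and are called measured. The effect of a gene is its mean log2(CPM + 5) over 6 and 7 minus that over 2 and 3, a scale that understates differences of low genes. Genes were called where PC9-BrM4 and PC9 columns did not overlap and the effect reached 1 in either direction (2-fold). By this rule 7 genes were higher in PC9-BrM4 (0.0925% of those measured) and 29 were lower (0.383%). The sub-populations had been defined by clustering these same cells on their expression. Lack of overlap between sub-populations is therefore not independent of that clustering, and 2 sub-populations of 1 line are not replicates. At a size of 0.5 without overlap, 54 genes were higher (0.714%) and 298 were lower (3.94%). These shares of all measured genes are the background for the list counts below. At any size, 728 genes (9.62%) were higher and 2438 (32.2%) lower without overlap. The median of all measured genes was −0.11, and 1927 effects were above 0 against 5641 below. Centred on that median, 8 genes were higher and 23 lower. The second table, of uncorrected counts, had a median of 0.04, with 57 genes higher and 103 lower. Its values are not plain means and also rise with the spread between cells. All 36 called genes had the same sign there. Both matched differences share the sign of every called gene by the rule of no overlap, and 32 of the 36 were beyond 2-fold in both.

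**Figure D1:**
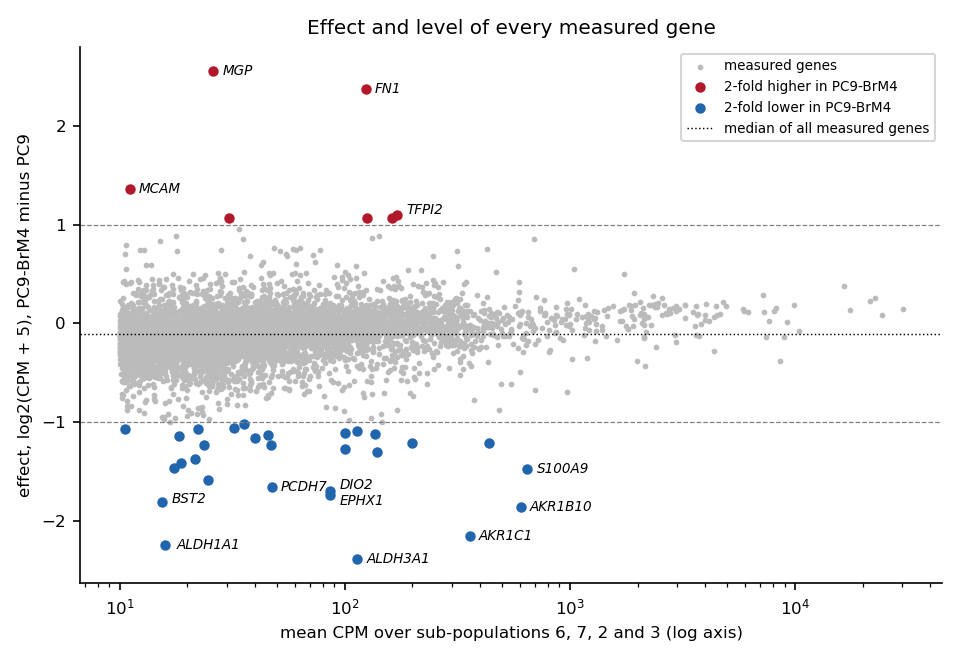
Effect of every measured gene (vertical axis, log2 of CPM + 5, PC9-BrM4 minus PC9) against its mean CPM over the 4 columns (horizontal log axis), with called genes in red (higher) and blue (lower). Most genes lie near the dotted median of −0.11, and the 29 lower genes outnumber the 7 higher ones.

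The gene with the largest positive effect was MGP, which encodes matrix Gla protein, a secreted inhibitor of calcification. It stood at 51.6 CPM in sub-population 6 and 44.6 in 7, against 5.67 in 2 and 2.66 in 3, an effect of 2.55. Per cell these were 0.774 corrected UMIs (95% interval 0.734 to 0.815) in 6 and 0.638 (0.595 to 0.684) in 7, against 0.084 (0.073 to 0.096) in 2 and 0.041 (0.034 to 0.049) in 3. MGP lies on chromosome 12 from 14880864 to 14885857 (GRCh38). FN1, on chromosome 2 from 215360440 to 215436073, encodes fibronectin, the matrix glycoprotein that integrins bind. It reached 208 and 215 CPM in 6 and 7, against 36.2 and 37.2 in 2 and 3 (effect 2.38), with 2.34 between the mitotic columns and 2.42 between the others. FN1 was thus nearly equal within each line and more than 5-fold apart between them (fold of 5.19 on the CPM + 5 scale).

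The other 5 higher genes differed by less. MCAM, an adhesion molecule of the immunoglobulin family also called CD146, was at 20.2 and 16 CPM in 6 and 7, against 3.76 and 4.26 in 2 and 3 (effect 1.36). TFPI2, a secreted serine protease inhibitor, was at 250 and 218 CPM against 109 and 105 in PC9 (1.1). TGM2, transglutaminase 2, which crosslinks matrix proteins including fibronectin, was at 172 CPM in both PC9-BrM4 columns, against 83.5 and 75 in 2 and 3 (1.07). MYH15, a myosin heavy chain gene, was at 45.8 and 41.1 CPM against 18.9 and 17.2 in PC9 (1.07). OLFML3, a secreted olfactomedin-like protein, was at 230 and 212 CPM against 104 and 101 in PC9 (1.07), but its effect was 0.12 in the table of uncorrected counts. TFPI2 kept an effect of 1.01 in that table, where the columns of the lines overlapped. As the rule requires, the columns did not overlap for any of the 7 genes in the corrected table. Of these genes OLFML3 at 1.07 was the one nearest the 2-fold threshold. Just outside it, TMEM158, a membrane protein gene, stood at 54.3 and 38.3 CPM against 19.4 and 23.1 (0.95).

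**Figure D2:**
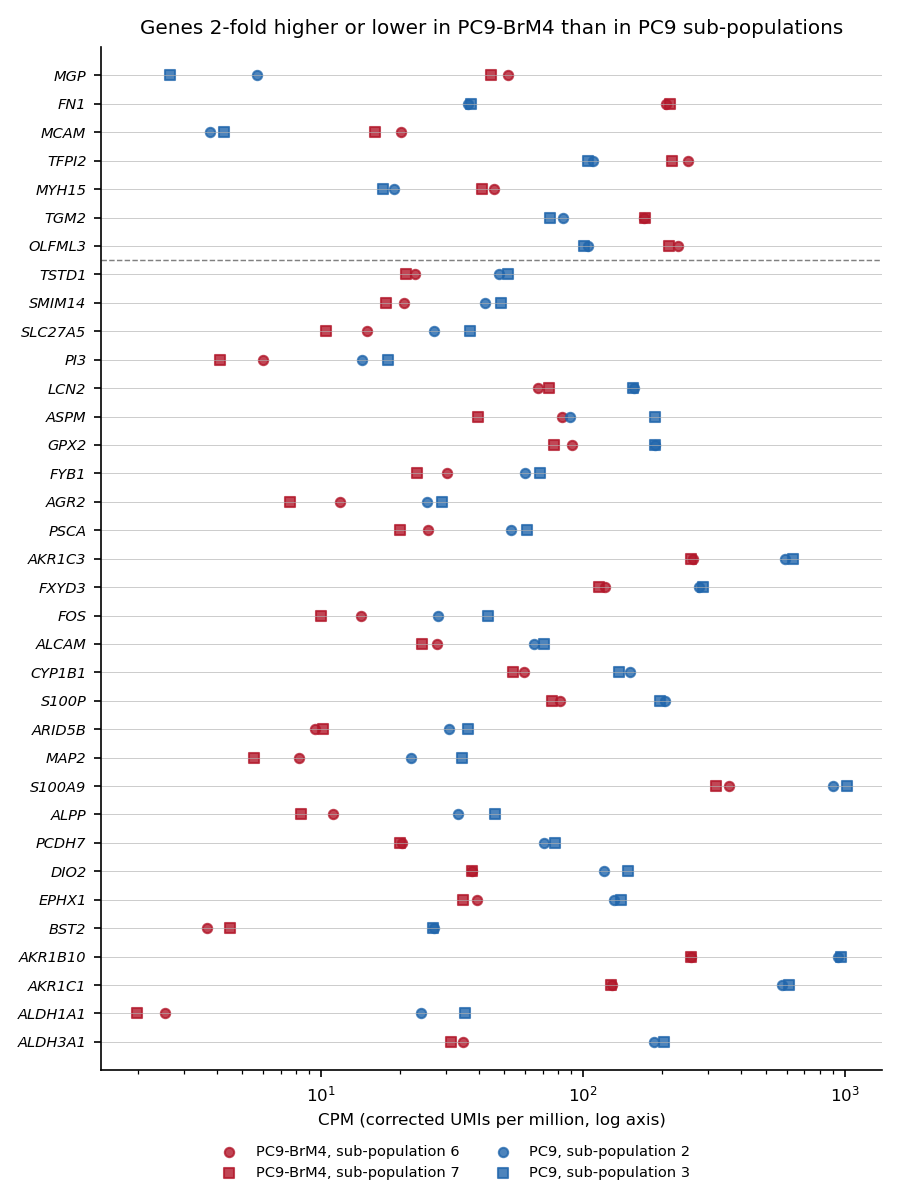
CPM (horizontal log axis) of 35 of the 36 called genes in PC9-BrM4 sub-populations 6 and 7 (red) and PC9 sub-populations 2 and 3 (blue), ordered by effect. Above the dashed line the 7 higher genes have both red points right of both blue ones. Below it the 28 lower genes shown have them to the left, and the rule of no overlap requires both.

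Lower genes were led by enzymes that reduce or oxidise carbonyl compounds. ALDH3A1, an aldehyde dehydrogenase of epithelia on chromosome 17 (19737984 to 19748943), had the largest negative effect of all measured genes. It averaged 34.9 and 31.4 CPM in 6 and 7, against 186 and 203 in 2 and 3 (effect −2.39). In corrected UMIs per cell these were 0.523 (0.491 to 0.557) and 0.450 (0.413 to 0.488), against 2.75 (2.69 to 2.81) and 3.13 (3.06 to 3.19). ALDH1A1, which makes retinoic acid from retinaldehyde, was at 2.53 and 1.97 CPM against 24 and 35.5 in PC9 (−2.24). It rested on the fewest UMIs of the called genes, 36 in sub-population 7, yet its columns lie well apart. Of the aldo-keto reductases, AKR1C1 was at 129 and 128 CPM against 572 and 610 in PC9 (−2.16), and AKR1B10, on chromosome 7 from 134527567 to 134541412, at 259 and 258 CPM against 941 and 966 (−1.86). AKR1C3, which also makes androgens and prostaglandins, was at 264 and 258 CPM against 591 and 634 (−1.21). The AKR1C genes are close copies of each other, so that their counts may be less certain, and AKR1C2 had an effect of −0.02.

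The list of NRF2 targets holds most of these enzymes. Of 31 listed genes 29 were measured, 6 were lower by 2-fold, 12 were lower by 0.5 and 0 were higher by either size. Its median was −0.46 beside −0.11 for all measured genes, and 26 of 29 members lay below that overall median. Besides ALDH3A1 and the aldo-keto reductases, the called members were EPHX1 and GPX2. EPHX1, microsomal epoxide hydrolase, was at 39.4 and 34.8 CPM in 6 and 7, against 131 and 139 in 2 and 3 (−1.74). GPX2, a glutathione peroxidase of epithelia, was at 91.0 and 77.5 CPM against 189 and 188 (−1.12). Both genes, being called, were lower in each PC9-BrM4 column. The effects of other members were smaller, as in CBR3, a carbonyl reductase (−0.94), SLC7A11, the cystine importer (−0.74), UGDH (−0.71), PGD of the pentose phosphate pathway (−0.64) and GCLC, the catalytic subunit of glutathione synthesis (−0.57). SLC7A11 turned direction in the table of uncorrected counts, at 0.27. NQO1, a widely used readout of NRF2, had an effect of −0.28, TXNRD1 of −0.07 and HMOX1, haem oxygenase, of 0.00. Among uncorrected counts the list had a median of −0.57 beside 0.04 for all genes.

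Promoter windows were searched for the core of the antioxidant response element, TGACNNNGC on either strand, in RefSeq sequences of GRCh38.p14 that run from 250 bases before to 50 after a start. Such a match is a description of letters and not a binding site. Of the 29 lower genes 23 had a window, and 5 of the 23 (21.7%) held the core, against 20.1% of the 6111 measured genes with a window and 16.1% of the 27305 genes with a RefSeq window. Of the measured NRF2 targets 19 had a window and 7 held it (36.8%). The upstream bases are shown for the lower genes with a single window in which the core lies before the start, with the core in capitals as it reads on the gene's strand, where it appears as GCNNNGTCA. For GPX2 they span chr14:64942746-64942995 (minus strand), and the core ends 114 bases before the start. For ALPP they span chr2:232378501-232378750 (plus strand), and the core ends 73 bases before the start.
GPX2: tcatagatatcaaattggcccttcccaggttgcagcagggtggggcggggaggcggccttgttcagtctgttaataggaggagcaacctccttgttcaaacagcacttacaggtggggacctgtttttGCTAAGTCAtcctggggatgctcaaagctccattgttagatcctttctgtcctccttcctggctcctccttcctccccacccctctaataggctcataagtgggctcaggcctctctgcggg
ALPP: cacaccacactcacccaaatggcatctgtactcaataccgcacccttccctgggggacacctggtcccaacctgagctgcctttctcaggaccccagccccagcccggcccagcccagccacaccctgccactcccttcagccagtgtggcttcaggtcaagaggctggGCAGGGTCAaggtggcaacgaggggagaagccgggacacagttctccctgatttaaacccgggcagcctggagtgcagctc

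The list of enzymes that clear aldehydes and electrophiles shares ALDH3A1 with the NRF2 list. Of its aldehyde dehydrogenases, glutathione transferases and cytochromes P450 18 genes were measured, 3 were lower by 2-fold, 8 by 0.5 and 0 were higher. Over all measured genes 0.383% were lower by 2-fold and 3.94% by 0.5. The list had a median of −0.39. Beside ALDH3A1 and ALDH1A1 its called member was CYP1B1, a cytochrome P450 of oestrogen and hydrocarbon metabolism, at 59.5 and 53.8 CPM in 6 and 7, against 151 and 138 in 2 and 3 (−1.28). The CYP1B1 difference was −1.15 between the mitotic columns and −1.41 between the others, but with uncorrected counts, where its effect was −1.12, the columns overlapped and CYP1B1 was not called. ALDH3B1 (−0.91), MGST2 (−0.81), MGST3 (−0.69) and GSTK1 (−0.65) followed without passing 2-fold, while GSTM4, a cytosolic glutathione transferase, stood at 0.38. Leaving out MGST2, MGST3 and ALDH9A1, which lie in the chromosomal stretches described further on, brought the median to −0.20 over the remaining members.

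Secreted and mucosal defence proteins had a median of −0.87, with 9 of 26 members measured. Of these, 4 were lower by 2-fold and 6 by 0.5, beside 0.383% and 3.94% of all measured genes. PSCA, a surface antigen, was at 25.6 and 20 CPM in 6 and 7, against 53.0 and 60.9 in 2 and 3 (−1.16). AGR2, a disulfide isomerase that mucin-secreting cells need, was at 11.7 and 7.61 CPM against 25.3 and 28.9 (−1.14). LCN2, lipocalin 2, which binds iron-carrying siderophores, was at 67.2 and 73.8 CPM against 156 and 155 (−1.09). PI3, the elastase inhibitor elafin, was at 6.0 and 4.11 CPM against 14.3 and 18 (−1.07), the lowest mean level among called genes. With uncorrected counts PI3 was at −4.05. All 4 called genes had both PC9-BrM4 columns below both PC9 columns, as the rule of calling requires. SLPI, another inhibitor of elastase, had an effect of −0.87, ELF3, an epithelial transcription factor, of −0.85 and CST6, cystatin M, of 0.37.

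S100 proteins and annexins went both ways. S100A9, which forms calprotectin with S100A8, was at 359 and 321 CPM in 6 and 7, against 902 and 1013 in 2 and 3 (−1.48), the most abundant called gene by mean CPM. S100P was at 81.5 and 75.9 CPM against 205 and 197 (−1.30). Of 16 measured members those were the 2 called, and at 0.5 the list had 4 lower and 2 higher, with a median of 0.13. ANXA1, annexin A1, was at 700 and 781 CPM against 1238 and 1162 (−0.69). S100A14 pointed the other way, at 831 and 949 CPM against 543 and 440 (0.85), as did S100A4 at 18.6 and 14.9 CPM against 10.4 and 8.38 (0.59). Of the 16 genes 9 lie in chromosomal stretches described further on, and the remaining members had a median of −0.32.

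BST2, tetherin, a membrane protein that retains budding viruses, was the gene of the interferon-stimulated list that was called. It was at 3.65 and 4.49 CPM in 6 and 7, against 27.0 and 26.6 in 2 and 3 (−1.81). Of 8 measured members of that list 3 were lower by 0.5, the others being PSMB9 of the immunoproteasome (−0.68) and IFITM3 (−0.57). The list median was −0.40. Over all measured genes 3.94% were lower by 0.5. IRF1, a transcription factor that interferon induces, had an effect of −0.17. Of 12 measured genes of MHC class I presentation, PSMB9 was the 1 lower by 0.5, and the median of −0.09 lay close to that of all genes. No gene of MHC class II presentation was measured. Inflammatory cytokines were mostly too low to be measured, and of the 4 measured genes of the NF-kB list IL18 was at −0.75, NFKBIA at −0.37, SOD2 at −0.09 and TNFRSF12A at −0.08.

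Genes of the list of neural adhesion and guidance were lower where they differed. PCDH7, protocadherin 7, was at 20.4 and 20 CPM in 6 and 7, against 71.2 and 77.9 in 2 and 3 (−1.66). ALCAM, an immunoglobulin adhesion molecule, was at 27.8 and 24.3 CPM against 64.8 and 71.1 (−1.23). NRP2, a semaphorin and VEGF co-receptor, was at 9.94 and 8.16 CPM against 14.5 and 15.5 (−0.52). These were the 3 genes lower by 0.5 of the 10 measured, and 0 were higher. Of 24 genes named in background work on brain metastasis 4 were measured. PCDH7 and LCN2 were lower by 2-fold, SPP1, osteopontin, was at 91.1 and 106 CPM against 199 and 182 (−0.92), and VEGFA was at 19.5 and 16.2 CPM against 15.1 and 17.9 with overlapping columns (0.09).

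Several lower genes belong to none of these groups. DIO2, the deiodinase that activates thyroid hormone, was at 37.7 CPM in both 6 and 7, against 120 and 149 in 2 and 3 (−1.70). In the table of uncorrected counts, whose values also rise with the spread between cells, DIO2 was at −4.18. ALPP, placental alkaline phosphatase, was at 11.1 and 8.38 CPM against 33.2 and 46.2 (−1.59), and its near-identical relatives may make its count less certain. MAP2, a microtubule-binding protein best known from neurons, was at 8.20 and 5.53 CPM against 21.9 and 34.5 (−1.47). ARID5B, a chromatin regulator, was at 9.50 and 10.1 CPM against 30.7 and 36.3 (−1.37). In these 4 genes the higher PC9 column was sub-population 3, the mitotic one, but the matched differences were all beyond 2-fold, from −1.24 to −1.85. FXYD3, a regulator of the sodium pump, had an effect of −1.22, FYB1, an adaptor protein, of −1.13, SLC27A5, a bile acid and fatty acid ligase, of −1.07, SMIM14 of −1.06 and TSTD1 of −1.02. SLC27A5 was at −0.84 in the table of uncorrected counts. TSTD1 was the lower gene nearest the threshold, at 22.8 and 21.1 CPM against 47.6 and 51.7, and CREG1 lay just outside it, at 11.1 and 7.94 CPM against 21.3 and 26.8.

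Of genes that respond to growth factors, FOS, the AP-1 subunit induced within minutes of stimulation, was at 14.2 and 10.0 CPM in 6 and 7, against 27.9 and 43.2 in 2 and 3 (−1.23). EGR1, another immediate early gene, was at 8.24 and 5.09 CPM against 13.3 and 18.1 (−0.83). FOSL1, a later AP-1 subunit that the study names, was at 62.8 and 46.8 CPM against 30.8 and 43.4 (0.51), and 0.13 in the table of uncorrected counts. The 13 measured genes of the AP-1 list had 3 lower and 1 higher by 0.5, with a median of 0.00. For ERK output the median was 0.16 over 14 genes, with DUSP6, a phosphatase that limits ERK, at 26.6 and 27.0 CPM against 21.6 and 15.4 (0.45). EGFR itself, the mutant driver of these cells, was at 299 and 310 CPM against 192 and 185 (0.68). In corrected UMIs per cell EGFR had 4.49 (4.4 to 4.59) and 4.43 (4.32 to 4.55) in 6 and 7. In 2 and 3 it had 2.84 (2.77 to 2.90) and 2.85 (2.79 to 2.92). Its effect was 0.21 in the table of uncorrected counts, whose values also rise with the spread between cells. Why the tables differed for EGFR was not tested. Among its ligands, TGFA was at 23.9 and 18.5 CPM against 12.7 and 14.1 (0.50), and AREG, amphiregulin, had overlapping columns (0.42). Of 10 measured receptors and ligands EGFR and TGFA were the 2 that were higher by 0.5, and 0 were lower.

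TGF-beta targets were split. TGM2 was higher, as given above, whereas ID1, an inhibitor of helix-loop-helix factors that BMP signals induce, was at 71.3 and 66.1 CPM in 6 and 7, against 127 and 154 in 2 and 3 (−0.98), and ID3 was at 66.5 and 73.5 CPM against 108 and 108 (−0.60). Over 11 measured members the median was −0.14. Among targets of YAP, which senses cell shape, CYR61 was at 74.4 and 57.5 CPM against 32.0 and 43.5 (0.73), the 1 of 14 that differed by 0.5, and the list's median was 0.08. Of the 4 measured WNT targets DKK1, a secreted WNT inhibitor, was at −0.63, CD44 at 0.24, MYC at 0.16 and CCND1 at 0.00.

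Among receptors for the matrix, ITGA2, the collagen receptor subunit, was at 199 and 174 CPM in 6 and 7, against 92.6 and 105 in 2 and 3 (0.88), and ITGA6, a laminin receptor subunit, at 110 and 114 CPM against 76.6 and 68.9 (0.59). With uncorrected counts both effects were smaller, at 0.07 and 0.02. ITGB1, the partner of both, was at 222 and 225 CPM against 235 and 234 (−0.07), and ITGA3 was at 63.1 and 65.6 CPM against 60.7 and 50.5 (0.20). Over 13 measured receptors the median was 0.02, with 2 higher by 0.5 and 0 lower. Ligands in the matrix list went both ways, with FN1 and MGP higher and the laminin chains LAMB3 (−0.77) and LAMC1 (−0.70) lower by 0.5. LAMB3 was at 21.9 and 20.1 CPM against 37.8 and 40.7, and LAMC1 at 21.8 and 16.7 CPM against 28.6 and 40.7, while LAMA3 had an effect of 0.35.

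Of the genes the study names, 10 of 13 were measured, with a median of 0.35, 5 higher by 0.5 and none called. Besides EGFR, ITGA2, ITGA6 and FOSL1, PRNP, the prion protein, was at 71.1 and 76.4 CPM against 55.0 and 39.9 in PC9 (0.60), and 0.70 in the table of uncorrected counts. In that table EGFR was at 0.21, ITGA2 at 0.07, ITGA6 at 0.02 and FOSL1 at 0.13. The median of the study-named genes there was 0.07, beside 0.04 for all measured genes. RHOA, the small GTPase that drives actin contractility, was at 142 and 152 CPM in 6 and 7, against 150 and 143 in 2 and 3 (0.00), and RHOC was at 93.9 and 102 CPM against 103 and 92.2 (0.00). RAP1A had an effect of −0.10. SRF, the transcription factor of actin genes, was below 10 CPM, at 4.63 and 4.05 CPM against 3.98 and 4.92, as was KRT13. Some of these genes were picked by the study with values of these samples in view, and for those the direction is not independent evidence.

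Actin-binding and contractile genes under SRF had a median of 0.17 over 28 members, with 2 higher by 0.5, 0 lower and none called. TAGLN2, transgelin 2, was at 550 and 532 CPM in 6 and 7, against 311 and 326 in 2 and 3 (0.75). LCP1, L-plastin, which bundles actin, was at 72.8 and 77.1 CPM against 45.2 and 39.7 (0.75). CNN3, calponin 3, and MYH9, non-muscle myosin, each had an effect of 0.44. Of 19 genes of epithelial to mesenchymal transition 6 were measured and 4 were higher by 0.5, beside 0.714% of all measured genes. These 4 were FN1, GNG11 (0.76), LCP1 and S100A4, and the list median was 0.67. Transition factors such as ZEB1, SNAI2 and TWIST1 were not among the measured members, and LGALS1, galectin 1, was at −0.09.

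Epithelial structure differed little. The 7 measured keratins had a median of −0.15 and none differed by 0.5, KRT19 being at 2469 and 3078 CPM in 6 and 7, against 3524 and 2797 in 2 and 3. Of 22 junction genes DSG2, a desmosomal cadherin, was higher (0.51) and F11R, a tight junction protein, lower (−0.65), and the median was −0.05. Of 12 lung lineage and epithelial factors 3 were lower by 0.5, beside 3.94% of all measured genes. ELF3 was at 65.3 and 50.4 CPM against 108 and 107 (−0.85), KLF5 at 28.8 and 22 CPM against 37.0 and 54.1 (−0.72), and ID1 is given above. In extracellular proteolysis, CTSD, a cathepsin that cells also secrete, was at 61.8 and 63.7 CPM against 118 and 118 (−0.86), and TIMP3, a metalloprotease inhibitor, at 37.2 and 29.7 CPM against 50.1 and 57.2 (−0.61), the 2 of 15 that differed by 0.5.

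**Figure D3:**
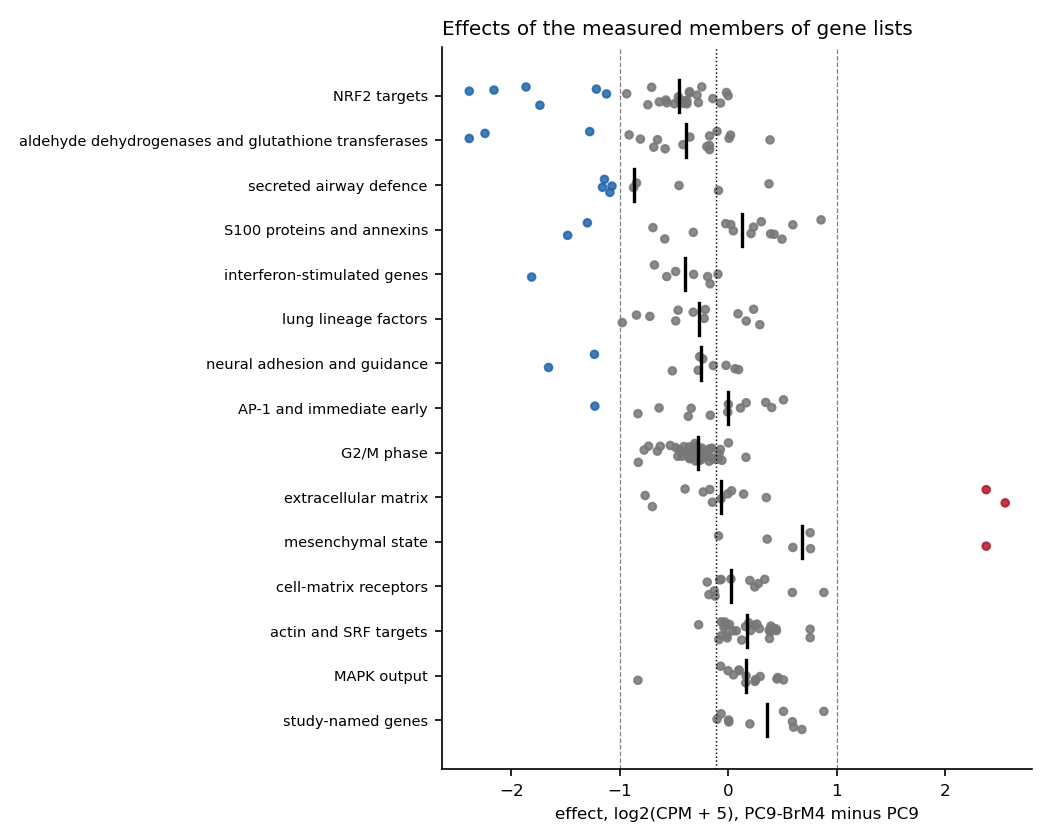
Effects (horizontal axis, log2 of CPM + 5, PC9-BrM4 minus PC9) of the measured members of 15 gene lists, with list medians as black bars, called genes in red (higher) or blue (lower) and the dotted line at the median of all genes, −0.11. NRF2 targets (median −0.46) and secreted airway defence (−0.87) lie to its left, and the mesenchymal list (0.67) to its right.

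Mitotic genes were lower on balance, and more so between the mitotic columns. The median of the G2/M list was −0.39 for 6 minus 3 and −0.20 for 7 minus 2, beside −0.10 and −0.12 for all measured genes. Of 52 measured genes of the G2/M list 46 lay below the median of all genes, the list median was −0.28 and NUF2, a kinetochore protein, was the 1 lower by 0.5 without overlap, at 30.4 and 17.7 CPM in 6 and 7, against 32.2 and 63.3 in 2 and 3 (−0.83). CENPF, a centromere protein, was at 330 and 210 CPM against 316 and 651, so that its columns overlapped and the mitotic PC9 column stood highest. ASPM, a spindle pole gene, was called at 82.9 and 39.7 CPM against 89.1 and 189 (−1.11), and within the pairs it was at −1.14 and −1.07. With uncorrected counts ASPM had an effect of −1.04, but its columns overlapped and it was not called. Replication genes of S phase had a median of −0.06 over 43 members, where TYMS, thymidylate synthase, was at 163 and 126 CPM against 86.8 and 113 (0.51). Of 18 G1 regulators CCND3, a D-type cyclin, was lower by 0.5 (−0.58), and the median was −0.07. The shares of cells in each phase were not measured, and how far they set these values was not tested.

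Metabolic and housekeeping lists held no called gene other than LCN2, which is also in the list of iron handling. Their medians were 0.01 for glycolysis and hypoxia (24 genes), 0.13 for cholesterol synthesis (16), −0.05 for fatty acid metabolism (18), −0.10 for nuclear subunits of oxidative phosphorylation (63) and 0.15 for the mitochondrially encoded transcripts (13). SCD, which desaturates fatty acids, was at 71.8 and 67.2 CPM in 6 and 7, against 41.2 and 40.5 in 2 and 3 (0.70). Of the respiratory subunits 3 were lower by 0.5, among them NDUFC1 (−0.72) and SDHC (−0.58), and all 3 lie in the chromosomal stretches described next. MT2A, a metallothionein, was at 1297 and 1191 CPM against 871 and 819 (0.55). For amino acid stress genes under ATF4 the median was −0.07, for heat shock chaperones −0.07, for chaperones of the endoplasmic reticulum 0.00, for the proteasome −0.06, for the lysosome −0.11, for apoptosis regulators −0.10, for long non-coding RNAs −0.08 and for ribosomal proteins 0.11. MetRes is a signature of metastasis and resistance defined by the study, and of its 255 genes 231 were measured, 2 were called higher (MGP and TFPI2), 6 lower (BST2, S100A9, S100P, PSCA, LCN2 and PI3), and the median was −0.07. The study chose that list on these samples.

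Genes shifted together along 3 chromosomes. Positions in GENCODE 44 on GRCh38 were found for 7504 measured nuclear genes, and medians were taken in windows of 25 neighbours. Stretches of at least 25 genes in which the window median lay 0.2 or more from that of all genes, a rule chosen after the values were seen, held 491 genes (6.54%). On chromosome 18 the stretch took in the whole chromosome, from USP14 to ADNP2, where 108 of 111 genes lay above the overall median, at a median of 0.29. Of these 67 were higher at any size without overlap, beside 9.62% of all genes. On chromosome 4 from SLC7A11 to FRG1 (138164097 to 189963202) all 63 genes lay below the overall median, at a median of −0.53, and 59 were lower without overlap, beside 32.2% of all genes.

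Chromosome 1 carried neighbouring stretches of opposite direction. From SETDB1 to COPA (150926263 to 160343566) the median was 0.18 and 79 of 85 genes lay above the overall median. From F11R to CCSAP (160995211 to 229343294) it was −0.44, and 165 of 173 genes lay below the overall median. The turn thus fell between COPA and F11R, and the plot by gene order shows it as a single step. A shorter stretch from PTGFRN to RPRD2 had a median of 0.15 (31 genes), and one from C1orf131 to SDCCAG8 of −0.32 (28 genes). The medians hardly differed between the matched pairs, with −0.46 for 6 minus 3 and −0.43 for 7 minus 2 from F11R to CCSAP, and 0.32 and 0.28 on chromosome 18. They were present in the table of uncorrected counts too, where chromosome 18 stood 0.45 above the median of all genes and the stretch on chromosome 4 fell 0.42 below it, against 0.40 above and 0.42 below in the corrected table.

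Together the stretches held 103 of the 298 genes lower by 0.5 and 17 of the 54 higher, but 5 of the 29 lower by 2-fold (among them EPHX1, ASPM, TSTD1 and, in a stretch that was higher, S100A9) and 0 of the 7 higher. Outside them 24 genes were lower and 7 higher by 2-fold. Members named above that lie in lower stretches are EPHX1, LAMB3, LAMC1, F11R, ELF3, NUF2, CENPF, ASPM, TSTD1, CREG1, SDHC, MGST3 and ALDH9A1 on chromosome 1 and SLC7A11, MGST2 and NDUFC1 on chromosome 4. Those in higher stretches are S100A14, S100A4, TAGLN2 and S100A9 on chromosome 1 and DSG2, LAMA3, TYMS and MBP on chromosome 18. The median of the NRF2 list was −0.43 without its 2 members in stretches, and that of the G2/M list −0.28 without its 8.

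**Figure D4:**
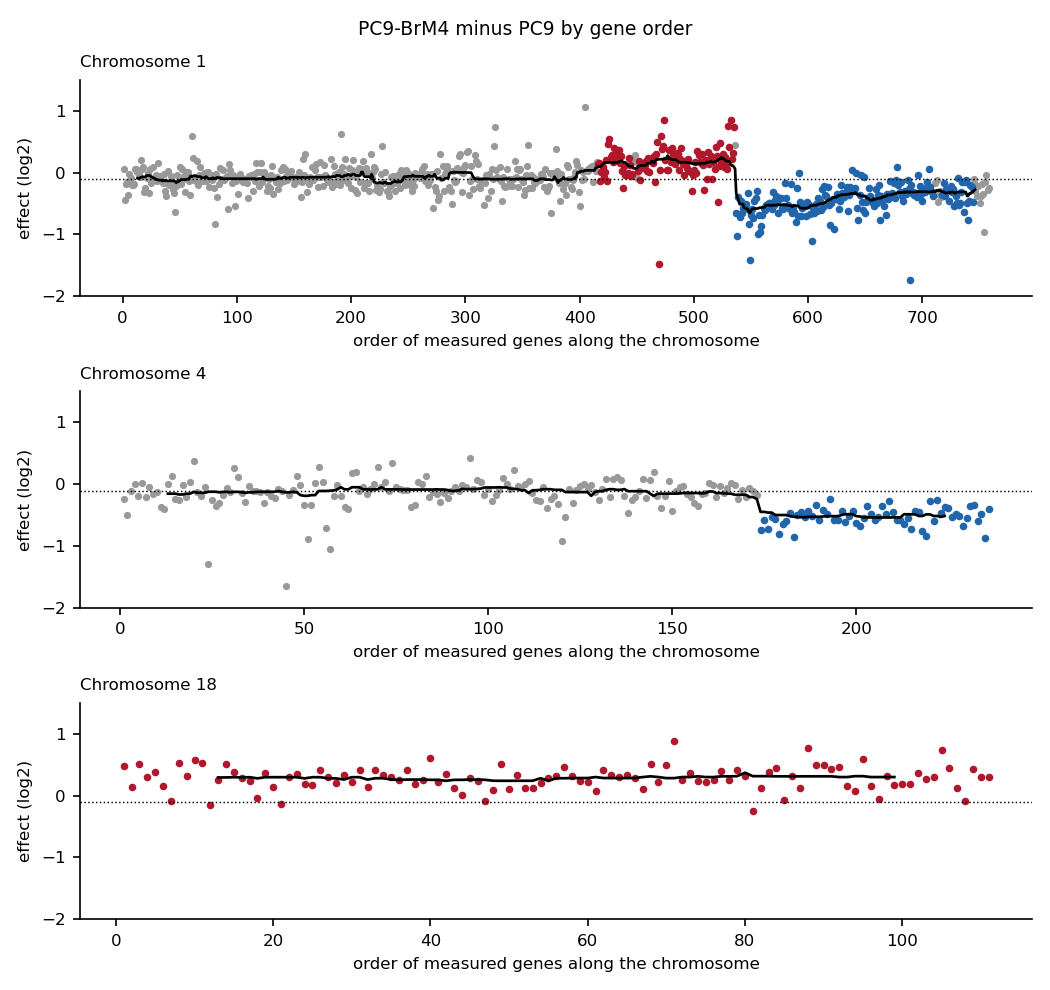
Effect of each measured gene (vertical axis, log2 of CPM + 5, PC9-BrM4 minus PC9) in the order of genes along chromosomes 1, 4 and 18, with the median of 25 neighbours as a black line, stretches in red (higher) and blue (lower) and the dotted line at −0.11. Chromosome 18 lies above the dotted line along its length. Chromosome 4 steps down near the start of its last 63 measured genes, and chromosome 1 steps from a higher to a lower stretch.

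The same stretches were read in other sub-populations, as the difference from the mean of 2 and 3 relative to the median of all genes, so that all of these values share the PC9 columns. On chromosome 18 the relative median was −0.01 and 0.01 in sub-populations 0 and 4, which are most prevalent in C2, and −0.08 and −0.12 in 1 and 5, most prevalent in R2. It was 0.33 in the small sub-population 11 and 0.38 in 12. On chromosome 4 it was −0.04 and −0.03 in 0 and 4, −0.17 and −0.21 in 1 and 5, −0.42 in 12, −0.39 in 9 and −0.07 in 11. From F11R to CCSAP it lay between −0.29 and −0.40 in 0, 4, 1 and 5, and at 0.01 in 11. From SETDB1 to COPA it was 0.34 in 12 but −0.43 and −0.42 in 0 and 4. Sub-population 12 therefore had the sign of 6 and 7 in all 4 of these stretches. Sub-populations 0, 4, 1 and 5 shared it in the lower stretches of chromosomes 1 and 4, with smaller values on chromosome 4.

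Levels in C2 and R2, the lines that descend from PC9-BrM4, did not simply extend the difference from PC9. MGP averaged 48.1 CPM in PC9-BrM4 and 4.16 in PC9, and it averaged 360 in the sub-populations of C2 and 594 in those of R2. FN1 averaged 211 CPM in PC9-BrM4 and 36.7 in PC9, but 11.2 in C2 and 7.20 in R2, below the parental line. LCP1 had the same order, with 1.95 and 2.05 CPM in 0 and 4. MCAM, at 18.1 CPM in PC9-BrM4 and 4.01 in PC9, averaged 32.5 in C2 and 24.3 in R2, and TFPI2, at 234 and 107, averaged 385 and 444.

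Lower genes also fell into more than 1 pattern. ALDH3A1, at 33.1 CPM in PC9-BrM4 and 194 in PC9, was lower still in C2 (12.6) and R2 (8.47), as was ALDH1A1 (2.25 in PC9-BrM4, 29.7 in PC9, 0.32 in C2 and 0.21 in R2). AKR1B10 averaged 258 CPM in PC9-BrM4 and 953 in PC9, with 270 in C2 and 143 in R2, and AKR1C1 averaged 129 in PC9-BrM4 and 591 in PC9, with 267 in C2 and 126 in R2. BST2 was lowest in PC9-BrM4, at 4.07 CPM against 26.8 in PC9, 131 in C2 and 157 in R2. LCN2 likewise averaged 70.5 CPM in PC9-BrM4 and 156 in PC9, with 438 in C2 and 515 in R2, and S100A9 averaged 340 and 958, with 1028 and 976. EGFR averaged 305 CPM in PC9-BrM4 and 189 in PC9, with 492 in C2 and 301 in R2.

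**Figure D5:**
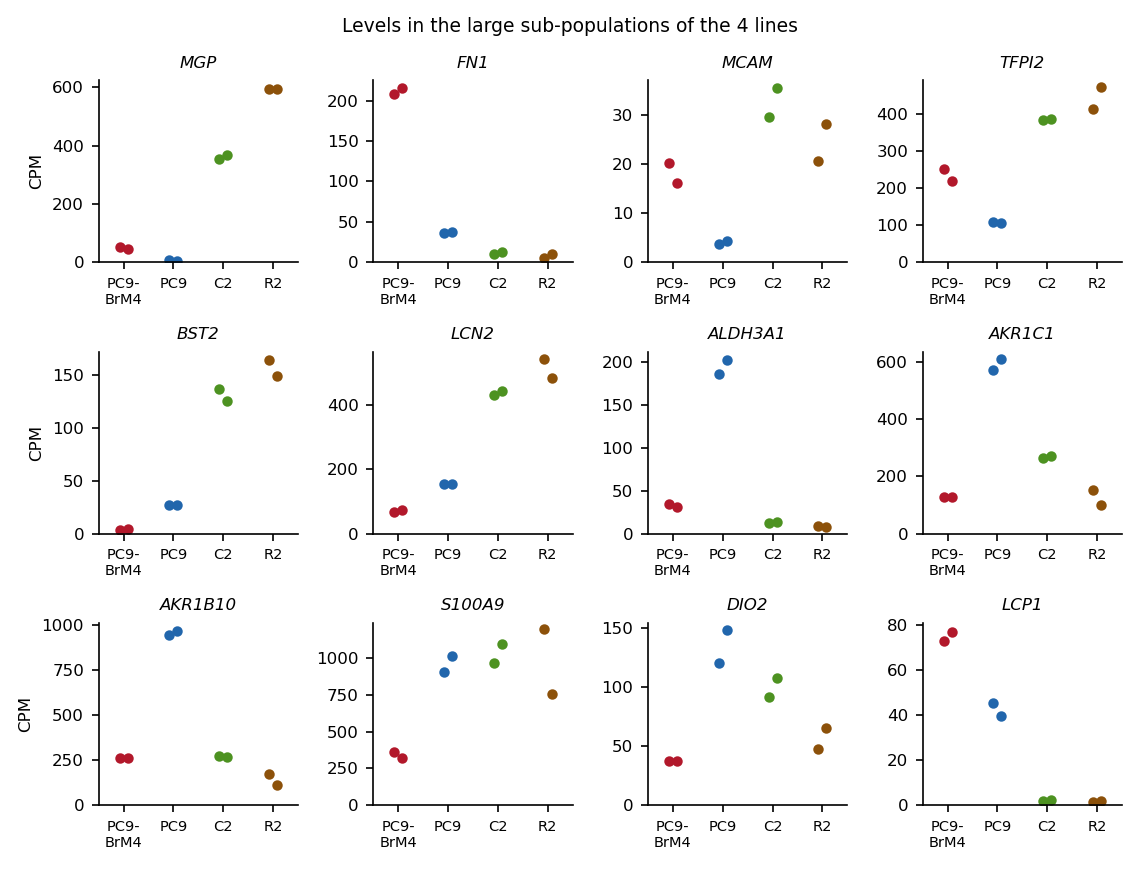
CPM (vertical axes from 0) of 12 genes in the large sub-populations of PC9-BrM4 (6 and 7), PC9 (2 and 3), C2 (0 and 4) and R2 (1 and 5), 1 point per sub-population. FN1 and LCP1 are highest in PC9-BrM4, MGP is highest in R2, and BST2, LCN2 and S100A9 are lowest in PC9-BrM4.

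Transcript length did not separate the effects in the corrected table. In 4 equal groups of measured genes by length of the canonical transcript, the median effect was −0.12, −0.11, −0.10 and −0.10 from shortest to longest. With 1 library per line, what differs between the lines and what differs between the cultures or library preparations cannot be told apart.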

How the data were processed

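The authors prepared 10x 3′ version 3 libraries, 1 for each of PC9-BrM4, PC9, C2 and R2, from combined passages. The authors aligned reads to hg38 with Cell Ranger, removed cells and genes with few transcripts, and used Seurat 3 with sctransform, with the mitochondrial percentage as a covariate. The deposited signal values of the corrected table are mean corrected UMIs per cell of each sub-population. Multiplied by a whole number of cells they gave whole numbers within 0.001, from which cell numbers were recovered. The other deposited table, called here the table of uncorrected counts, holds the mean of e^count − 1, which was turned into a mean count under a Poisson assumption and also rises with the spread between cells. Overflowed values left 6 measured genes with none.

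Columns were rescaled to CPM in Python 3.11.15 (numpy 2.4.6, pandas 2.3.3). No test was applied. The sub-populations, gene lists and rules were chosen with earlier results of these data known. Named genes are the 15 called genes at either end of the effects (on the higher side all 7) that kept their direction in both tables, genes that the study names, the leading 4 members of each described list by size of effect, and all members of lists with fewer than 5 measured. Further called genes and list members are named as examples after their values were seen. Some named items are not reported here. Doublets and single-cell values were not assessed here. Alternatives were the other table, pseudocount, filter, size, rescaling, centring, weights and the choice of columns.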

Additional observations from a re-analysis of the deposited data

How the results depend on the processing

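No paired analysis was possible because each line has 1 library. Of the 36 called genes 0 changed sign under the alternatives that gave them a value. The rule of no overlap fixed this in advance for the pseudocounts, the weights, the matched pairs and leaving out 1 sub-population. It was open mainly for uncorrected counts and for 11 and 12 added. Of the genes the study names, RHOA, RHOC, ITGB1 and RAP1A, whose effects lie near 0, did change sign under some alternatives. Examples are RHOC at −0.33 with uncorrected counts and RHOA at −0.21 with 11 and 12 added. The counts moved more. The 7 higher and 29 lower genes became 57 and 103 in the table of uncorrected counts, of which 5 and 26 were shared, so that 35.6% of called genes there were higher, against 19.4% in the corrected table. With a pseudocount of 1 CPM they were 11 and 59, with 20 CPM 3 and 13, with a filter of 50 CPM 4 and 13, and at a size of 0.5 they were 54 and 298. In 7 against 2 alone 2 genes were higher, FN1 and MGP. Without 1 sub-population at a time, between 6 and 19 genes were higher and between 23 and 82 lower. Without 3, 19 were higher, with mitotic and histone genes among those added. Without 2, 82 were lower, and without 6, 67 were. Adding sub-populations 11 and 12 left 15 of the 29 lower genes called, and 4 of the 7 higher. Those no longer called lower were AGR2, ASPM, CYP1B1, DIO2, FOS, GPX2, LCN2, PCDH7, PI3, PSCA, S100A9, SLC27A5, SMIM14 and TSTD1. Those no longer called higher were MYH15, OLFML3 and TFPI2. In sub-population 11 CYP1B1 (191 CPM), DIO2 (183), S100A9 (1052) and FOS (62.4) stood above both PC9 columns. In sub-population 12 the same genes stood below both. Without mitochondrially encoded transcripts in the totals, an alternative chosen after seeing the data, 8 genes were higher and 32 lower. The low precision of genes near 10 CPM and the absence of replicate libraries limit what can be read from these counts, and the cause of the moves was not tested.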
